A study of Mus musculus with 8 samples.

Results

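Serpins are a family of proteins named by a clade letter, and most of them inhibit serine or cysteine proteases by offering a reactive loop that the protease cuts and is then trapped on. Clades A, C, D, E, F and G are mainly secreted inhibitors of proteases in plasma and tissue fluid, clade B members act mainly inside cells, and clade H holds Serpinh1, a collagen chaperone that no longer inhibits proteases. In the gut lining they are known as brakes on proteases of neutrophils, lymphocytes, lysosomes, clotting and complement. The family was read here in colon epithelial cells of mice, as all genes whose symbol in the array's annotation was Serpin followed by a clade letter from a to i, a number and at most 1 further letter. This gave 55 genes of 19505 with a symbol, each with 1 row on the array and none with values identical to another gene's.

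The cells came from wild-type (WT) mice and mice without SMS2 (gene Sgms2), which makes sphingomyelin from ceramide, and the labels give C57BL/6J as the strain of both. Mice were untreated or drank 3.5% dextran sulfate sodium (DSS), which injures the colon lining, for 2 days. The 4 groups (WT untreated, WT with DSS, knockout untreated and knockout with DSS) held 2 arrays each, which the labels call biological replicates. The labels used here state no age, sex, deleted part of Sgms2, isolation of the epithelium or number of mice behind a replicate, so p-values measure the spread between these arrays.

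Signals are the deposited log2 values, and differences are log2 differences of group means ± standard error from limma, with p-values adjusted by Benjamini-Hochberg over 13003 tested genes and called at 0.05. For 1 gene, the smallest p that an exact permutation of 2 and 2 arrays allows is 0.333. Background is the 75th percentile of 5222 negative-control rows, which lay between 6.00 and 6.24 per array. Replicate arrays correlated across genes at r between 0.981 and 0.992. All 22 colon epithelium markers were above background on 7 of the 8 arrays and 21 of them on WT DSS replicate 1. Sgms2 was lower in both knockout groups (signals of 6.47 to 7.35 against 10.76 to 11.27). The Y-linked Eif2s3y, Uty and Kdm5d were under background on the 4 untreated arrays and above it on the 4 DSS arrays. In every DSS comparison below, DSS therefore cannot be told apart from the sex that those transcripts mark. All 13 measured markers of exocrine pancreas were above background on WT DSS replicate 1 and 8 of them on knockout DSS replicate 1, against 2 or 3 on each other array.

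Most of the family was not seen above background in these cells. On every array 38 of the 55 genes lay under it, 11 lay above it on all 8 arrays and 6 on some of them. The 11 were Serpina11, Serpinb1a, Serpinb1b, Serpinb1c, Serpinb5, Serpinb6a, Serpinb9, Serpinf1, Serping1, Serpinh1 and Serpini1. Against a stricter limit, the 95th percentile of the negative controls (8.14 to 8.56), Serpinb1a, Serpinb1b, Serpinb5 and Serpinb6a alone were above on all 8 arrays. After the third of all genes with the lowest mean signal was left out, 24 serpins were tested: 6 of 20 in clade A, 12 of 26 in clade B, both of clade F (Serpinf1, Serpinf2), Serping1, Serpinh1, and Serpini1 and Serpini2 of clade I. The filter left out 31 genes, among them Serpinc1 (antithrombin), Serpind1 (heparin cofactor) and Serpine3. Serpinb9f (mean 5.25) and Serpinb6e (5.30) lay just inside the filter, and Serpine3 (5.12) and Serpina3f (5.06) just outside.

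**Figure D1:**
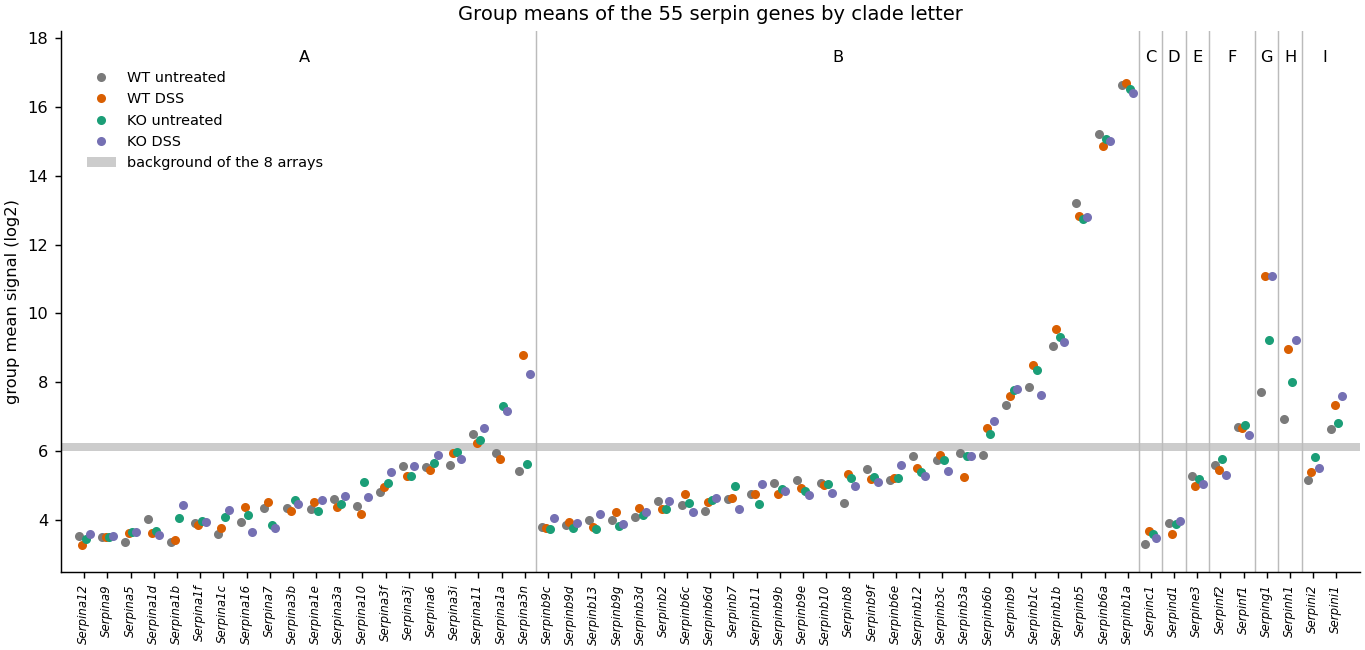
Group mean signal (log2, n = 2 arrays per point) of the 55 serpin genes, ordered within clade letter by overall mean, with the range of the 8 arrays' backgrounds as a grey band. Most points of clades A, B, C, D and E lie under the band, and the groups separate visibly for Serpina3n, Serpina1a, Serping1 and Serpinh1.

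With DSS, 3 of the 24 tested serpins rose in WT mice and none fell. They were Serpina3n, a secreted acute phase inhibitor, Serping1, the C1 inhibitor, and Serpinh1. That is 12.5% of the tested serpins, against 2.91% of all tested genes that rose, 1.12% that fell and 4.04% called in all. In knockout mice Serpina3n and Serping1 rose and none fell, 8.33% against 0.538% of all tested genes that rose, 0.392% that fell and 0.931% called in all. The median difference over the 24 serpins was 0.04 in WT and -0.02 in the knockout, against -0.05 and -0.04 over all tested genes. This median shows no shift of the tested set. Some of the 24 lay under background on every array, and the 31 genes left out of tests do not enter it.

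Serpina3n (row TC1200001047.mm.2) read 5.42 and 5.44 in untreated WT, 8.68 and 8.89 in WT given DSS, 6.02 and 5.25 in untreated knockout, and 8.32 and 8.18 in knockout given DSS. All 4 untreated arrays were under background and all 4 DSS arrays above it, with no overlap. The difference was 3.35 ± 0.27 in WT (adjusted p = 5.73e-05) and 2.62 ± 0.27 in the knockout (adjusted p = 0.00167). As the untreated level has only an upper limit, these are rises of at least 6.26-fold and at least 4.27-fold, from the mean of the DSS arrays against the background of the untreated ones. The change in the knockout minus that in WT was -0.74 ± 0.38 (adjusted p = 0.938), with a 95% confidence interval from -1.58 to 0.11. Between genotypes Serpina3n differed by 0.21 ± 0.27 without DSS (adjusted p = 0.999) and by -0.53 ± 0.27 with DSS (adjusted p = 0.539). Its tested neighbours of the same clade, Serpina3i and Serpina3j, did not pass in any comparison and lay under background on every array. The nearby Serpina3g, Serpina3k and Serpina3m had no row with a single symbol, so they were not measured here. How far the array separates these related genes was not tested. Of the 10 genes nearest in RefSeq's order, 6 were tested for Serpina3n, 7 for Serping1, 8 for Serpinh1 and 2 for Serpina1a. None was called for DSS within a genotype or for genotype within a treatment, and averaged over genotypes Slc43a1, near Serping1, fell with DSS (-0.73, adjusted p = 0.0326).

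Serping1 (row TC0200003880.mm.2) inhibits the complement proteases C1r and C1s as well as plasma kallikrein and factor XIIa. Its signals were 7.49 and 7.94 in untreated WT, 10.96 and 11.20 in WT given DSS, 9.42 and 9.06 in untreated knockout, and 11.36 and 10.79 in knockout given DSS. Both DSS groups lay above both untreated groups, and the untreated knockout lay above untreated WT on each array. The DSS difference was 3.36 ± 0.28 in WT (adjusted p = 5.73e-05) and 1.83 ± 0.28 in the knockout (adjusted p = 0.013). Without DSS the knockout was higher by 1.53 ± 0.28 (adjusted p = 0.0447), and with DSS the genotypes differed by -0.003 ± 0.28 (adjusted p = 0.998; 95% confidence interval from -0.61 to 0.60). The difference between the DSS changes of the genotypes was -1.53 ± 0.39 and did not pass over all genes (adjusted p = 0.366). These comparisons share arrays, since the untreated WT pair enters both the DSS change of WT mice and the untreated genotype difference. The call in the knockout was lost without knockout DSS replicate 1 (adjusted p = 0.0714), without untreated knockout replicate 2 (adjusted p = 0.13) and in a fit on those 4 arrays alone (adjusted p = 0.0898). The untreated genotype call was lost without any 1 of the WT or untreated knockout arrays (adjusted p from 0.0653 to 0.475) and after quantile normalization (adjusted p = 0.113).

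Serpinh1 (row TC0700003797.mm.2), also known as HSP47, escorts procollagen through the endoplasmic reticulum. It read 6.91 and 6.95 in untreated WT, 9.23 and 8.72 in WT given DSS, 8.15 and 7.84 in untreated knockout, and 10.13 and 8.36 in knockout given DSS. The groups did not overlap within either genotype, and the knockout DSS replicates lay further apart than those of any other group of the 4 serpins with a call. The gene rose in WT by 2.05 ± 0.45 (adjusted p = 0.0263). In the knockout the difference was 1.25 ± 0.45 (adjusted p = 0.343), and the difference between the genotypes' changes was -0.80 ± 0.63 (adjusted p = 0.99). Averaged over genotypes it rose by 1.65 ± 0.32 (adjusted p = 0.00994). The WT call was lost without any 1 of the 4 WT arrays (adjusted p from 0.0731 to 0.162) and after quantile normalization (adjusted p = 0.0634), and the knockout value rested on its DSS arrays: it was 2.13 without replicate 2 (adjusted p = 0.00724) and 0.36 without replicate 1 (adjusted p = 0.969).

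**Figure D2:**
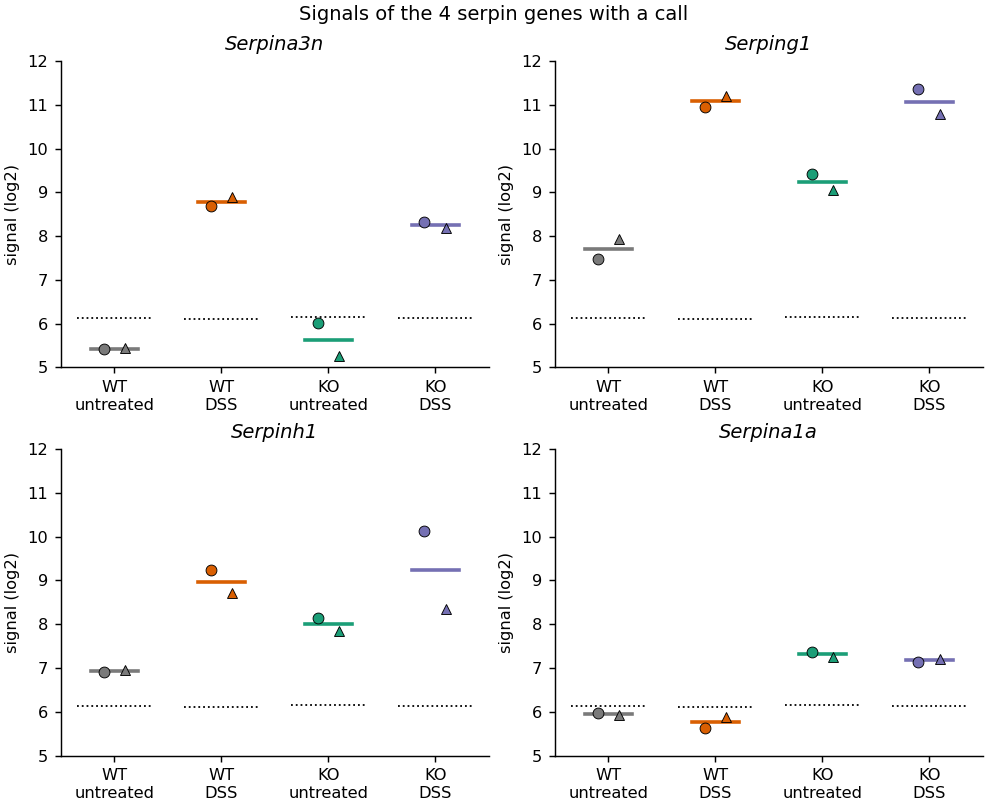
Signal (log2) of Serpina3n, Serping1, Serpinh1 and Serpina1a on each array, with replicate 1 as a circle, replicate 2 as a triangle, the group mean as a bar and the group's background as a dotted line. Serpina3n separates by DSS (5.25 to 6.02 against 8.18 to 8.89), Serpina1a by genotype (5.64 to 5.97 against 7.15 to 7.36), and Serping1 and Serpinh1 are lowest in untreated WT.

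Averaged over both genotypes, Serpina3n, Serping1 and Serpinh1 passed and rose (12.5% of the tested serpins, against 3.47% of all tested genes higher, 2.05% lower and 5.52% in all). Among all 55 genes, measured or not above background, 5 had their 4 DSS arrays all above the 4 untreated arrays, 9.09% against 3.97% of all genes. These were the 3 named, Serpini1 (neuroserpin, an inhibitor of tissue plasminogen activator) and Serpina1e, the last under background throughout. No serpin had its 4 DSS arrays all below the untreated ones, against 4.24% of all genes. Serpini1 read 6.16 and 7.15 in untreated WT, 7.30 and 7.40 in WT given DSS, 6.995 and 6.62 in untreated knockout, and 7.75 and 7.45 in knockout given DSS. Its averaged difference was 0.74 ± 0.22 and did not pass (adjusted p = 0.0851). It was 0.99 without untreated WT replicate 2 (adjusted p = 0.0239) and 0.50 without untreated WT replicate 1 (adjusted p = 0.316).

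Transcripts of cells other than epithelium moved alongside. The summed signal of 15 measured fibroblast and matrix markers, as log2, was 13.04 and 13.54 in untreated WT, 16.79 and 17.62 in WT given DSS, 15.43 and 15.03 in untreated knockout, and 17.25 and 16.74 in knockout given DSS. Serping1 and Serpinh1 had the same order of group means over the untreated groups, with the knockout between untreated WT and the DSS groups. Serpina3n stayed under background on both untreated knockout arrays while the fibroblast list there was above untreated WT. The macrophage and dendritic cell list (13 measured, 4 under background on all arrays, namely Adgre1, Cd163, Itgax and Cx3cr1) ran from 9.50 to 9.64, 11.69 to 12.13, 10.49 to 10.76 and 12.08 to 13.01 in the same order of groups. The endothelial list (14 measured, with Flt4 and Cldn5 under background throughout) ran from 10.01 to 10.05, 11.81 to 11.99, 10.91 to 11.14 and 12.02 to 12.51. The part of these cells in the serpin results was not tested. In such bulk samples, more cells of a type and more RNA per cell cannot be told apart.

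**Figure D3:**
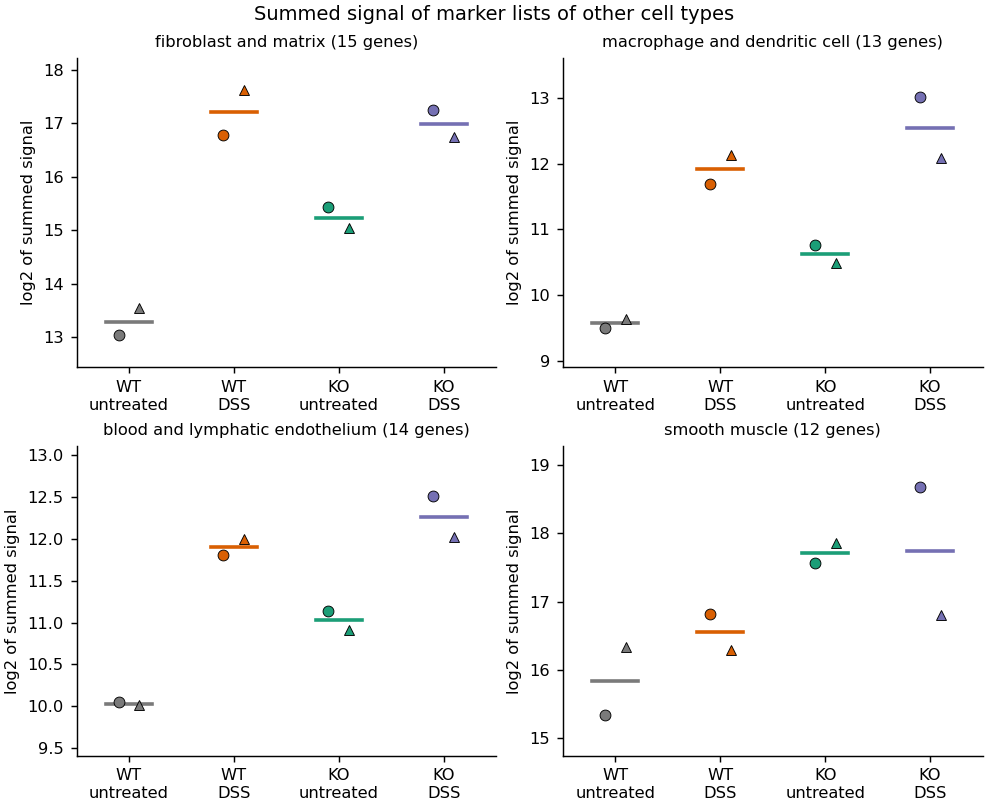
Log2 of the summed linear signal of marker genes of fibroblasts, macrophages and dendritic cells, endothelium and smooth muscle on each array (circle for replicate 1, triangle for replicate 2, bar for the group mean). For the first 3 lists untreated WT is lowest, untreated knockout intermediate and the DSS groups highest, while smooth muscle reads 15.34 and 16.33 in untreated WT, 16.82 and 16.29 in WT given DSS, 17.57 and 17.86 in untreated knockout, and 18.68 and 16.80 in knockout given DSS.

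Of 10 measured neutrophil markers 9 were under background on all arrays, S100a8 and S100a9 among them. Of 10 hepatocyte markers 6 were (Apoa1, Apoa2, F2, Ahsg, Serpinc1 and Fgb), and Alb read 5.83 to 7.16. Ttr (9.89 to 11.64) and Tat (9.51 to 11.13) led the hepatocyte list, above background on every array. With DSS, Tat was lower in the knockout than in WT (-1.46, adjusted p = 0.0227). Of 10 mast cell markers 8 were under background on all arrays, and Kit, at 11.04 to 11.66, led that list. T and cytotoxic cell markers had 4 of 10 under background throughout and a summed log2 signal of 9.84 and 10.63 in WT given DSS, against 8.68 to 9.36 elsewhere. The plasma cell list had 4 of 7 under background, with Jchain higher on the DSS arrays (14.61 to 15.61) than on the untreated ones (11.76 to 13.06). The members of highest mean in that list, Xbp1 (15.45 to 16.14) and Sdc1 (14.13 to 14.80), overlapped between DSS and untreated arrays. Over its 4 tested genes the median DSS difference was 0.16 in WT and 0.31 in the knockout. Enteric neuron and glia markers summed to 9.74 to 11.31, and mesothelial markers to 16.89 to 17.29, the latter almost all Krt19, which epithelium also makes. Serpini2, a serpin known from pancreas, was under background on every array, also on WT DSS replicate 1 (5.38), where Amy2a5 read 15.17.

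The protease partners of these serpins were taken from gene lists that were chosen with earlier results of these data known. Of 9 tested complement genes (C1 and lectin pathway), 4 rose with DSS in WT and 3 in the knockout, with none lower, against 2.91% and 0.538% of all tested genes higher. The median differences of the list were 1.34 and 1.08, against -0.05 and -0.04 over all tested genes. C1s1, a Serping1 target, read 7.14 and 7.50 in untreated WT, 9.72 and 9.73 in WT given DSS, 8.22 and 7.91 in untreated knockout, and 9.79 and 9.33 in knockout given DSS. It rose by 2.41 ± 0.25 in WT (adjusted p = 0.000279) and 1.49 ± 0.25 in the knockout (adjusted p = 0.0203). C1ra, also a target, rose in WT by 2.44 ± 0.34 (adjusted p = 0.0017) and differed by 1.08 ± 0.34 in the knockout (adjusted p = 0.26). C1qb and C1qc, recognition subunits of C1 rather than proteases, rose in both genotypes from background. They are also members of the macrophage and dendritic cell list. None of the 9 passed between genotypes in either treatment. So transcripts of the inhibitor and of its targets C1ra and C1s1 were higher in WT mice given DSS than in untreated WT mice.

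Of 11 tested genes of plasminogen activation, Plau (urokinase) alone rose with DSS within each genotype, from background by at least 2.99-fold in WT and at least 1.68-fold in the knockout. Plat, the tissue activator that neuroserpin inhibits, differed by 0.77 ± 0.24 (adjusted p = 0.111) and 0.89 ± 0.24 (adjusted p = 0.147) within WT and knockout, and rose averaged over genotypes (0.83 ± 0.17, adjusted p = 0.0132). Of 14 tested clotting genes and thrombin receptors, 5 rose in WT and 1 in the knockout, against 2.91% and 0.538% of all tested genes higher, shares that also stand beside the other list counts of this paragraph. Those of smallest p in WT were the anticoagulant cofactors Thbd (adjusted p = 0.000901) and Pros1 (2.15 ± 0.28, adjusted p = 0.00121), the thrombin receptor F2r (2.08 ± 0.28, adjusted p = 0.00126) and the protein C receptor Procr (adjusted p = 0.00404). The last of the 5 was F3, the clotting initiator tissue factor, which rose by 1.18 ± 0.27 (adjusted p = 0.0324). Thbd and Procr were under background in untreated WT and rose by at least 2.78-fold and at least 1.40-fold. F2r rose in the knockout too, by 1.48 ± 0.28 (adjusted p = 0.0354). Averaged over genotypes 4 of the 14 rose, against 3.47% of all tested genes higher. None of the 14 was called for a difference between the genotypes' DSS changes. Among proteases that clade B and Serpina3n are known to block, Gzma and Gzmb rose in WT and not in the knockout (2 of 7 tested granule proteases, and 0 of 7), and the difference between the genotypes was not called for either. Both genes are also in the T and cytotoxic cell list. Ctsk alone rose of 12 tested lysosomal cathepsins in WT, and Htra1 alone of 12 tested epithelial serine proteases. Of 17 tested protease inhibitors outside the family, Itih5 alone rose in WT, from 12.92 and 12.99 to 14.36 and 14.46. Of 17 tested collagen folding partners of Serpinh1, the procollagen genes Col1a2 and Col3a1 rose in WT by 2.27 ± 0.39 (adjusted p = 0.00604) and 4.11 ± 0.49 (adjusted p = 0.000642), and none was called in the knockout. There Col1a2 read 7.24 and 6.84 untreated and 8.87 and 7.98 with DSS, and Col3a1 10.05 and 9.61, and 13.07 and 11.28. Averaged over genotypes 4 of the 17 rose, and none was called for a difference between the genotypes' DSS changes. Both procollagen genes are also in the fibroblast and matrix list. P4hb, a subunit of the collagen prolyl hydroxylase, differed by -0.32 ± 0.25 in WT (adjusted p = 0.629).

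Between genotypes, Serpina1a stood apart in both treatments. Serpina1a (row TC1200002533.mm.2) is a copy of alpha-1-antitrypsin, the plasma inhibitor of neutrophil elastase, which mice carry as several near-identical genes. It read 5.97 and 5.92 in untreated WT, 5.64 and 5.88 in WT given DSS, 7.36 and 7.26 in untreated knockout, and 7.15 and 7.21 in knockout given DSS. Every WT array was under background and every knockout array above it, although under the 95th percentile of the negative controls. The knockout was higher by 1.36 ± 0.22 without DSS (adjusted p = 0.0292) and by 1.42 ± 0.22 with DSS (adjusted p = 0.0226). From the group means against background, that is at least 2.26-fold and at least 2.08-fold. Averaged over treatments the difference was 1.39 ± 0.16 (adjusted p = 0.00189). DSS did not move it past the threshold in either genotype (-0.19 ± 0.22 in WT, adjusted p = 0.773, and -0.13 ± 0.22 in the knockout, adjusted p = 0.919).

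Serpina1a and Serping1 were the 2 of 24 serpins higher in the untreated knockout (8.33%, against 0.338% of all tested genes higher, 0.0538% lower and 0.392% in all), and Serpina1a was the 1 of 24 higher with DSS (4.17%, against 0.115% higher, 0.238% lower and 0.354% in all). Averaged over treatments, Serpina1a was again the 1 serpin called (4.17%, against 0.423% higher, 0.254% lower and 0.677% in all). Both separate calls of Serpina1a were open to single arrays. Without DSS the call was lost without any 1 of the 4 untreated arrays (adjusted p from 0.151 to 0.267). With DSS it was lost without either untreated WT array (adjusted p = 0.0577), without WT DSS replicate 1 (adjusted p = 0.123), without knockout DSS replicate 1 (adjusted p = 0.0731) and without both of the last (adjusted p = 0.0829). The averaged call held under all 16 alternatives (highest adjusted p = 0.0183).

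The sister genes of Serpina1a lay under background on all arrays and were not tested, and how far the array separates the copies was not tested. Serpina1b read 3.27 to 3.53 in WT and 4.05 to 4.53 in the knockout, and Serpina1c 3.44 to 3.88 and 3.96 to 4.39, each without overlap. Serpina1d (3.57 to 4.07 in WT, 3.37 to 3.99 in the knockout) and Serpina1e (4.30 to 4.61, and 4.11 to 4.71) overlapped. With no filter on low genes, Serpina1b passed averaged over treatments (0.86 ± 0.15, adjusted p = 0.0374) and Serpina1c did not (0.50 ± 0.16, adjusted p = 0.271). Over all 55 serpins, 5 had the 4 knockout arrays all above the 4 WT arrays (9.09%, against 1.89% of all genes), namely Serpina1a, Serpina1b, Serpina1c, Serpina3b and Serpina10. The reverse held for Serpinb12 and Serpinb9g (3.64%, against 2.33%). Of these 7 genes, Serpina1a alone was above background on every array of a group. Serpina6 and Serpina11, the tested genes among the 10 nearest to Serpina1a, were not called in any comparison, with genotype differences averaged over treatments of 0.27 and 0.13.

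Serpina3n, Serpinh1 and Serpina1a had an upstream sequence in the RefSeq table of GRCm38.p6, and Serping1 was among the 6 of 55 serpins that had none matched. The 250 bases before each start site are shown for the serpins with a call, 5′ to 3′ on the gene's strand, so that the genes that rose with DSS can be set beside the gene that differed by genotype. Capitals mark matches, on either strand, to 7 motifs: TTCNNNGAA of STAT factors, an NF-kB motif (GGGA and CC with 4 bases between), an interferon motif (GAAA and GAAA with 2 bases between), GAANNTTC of heat shock factors, TATAAA of the TATA box, GGGCGG of Sp1 and the CCAAT box.
Serpina3n, chr12:104406458-104406707, plus strand: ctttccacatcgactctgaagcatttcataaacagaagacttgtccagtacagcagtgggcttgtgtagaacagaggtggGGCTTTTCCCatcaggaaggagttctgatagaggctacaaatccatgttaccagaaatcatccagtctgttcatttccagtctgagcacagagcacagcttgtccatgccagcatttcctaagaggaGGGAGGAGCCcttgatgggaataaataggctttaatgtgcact
Serpinh1, chr7:99353240-99353489, minus strand: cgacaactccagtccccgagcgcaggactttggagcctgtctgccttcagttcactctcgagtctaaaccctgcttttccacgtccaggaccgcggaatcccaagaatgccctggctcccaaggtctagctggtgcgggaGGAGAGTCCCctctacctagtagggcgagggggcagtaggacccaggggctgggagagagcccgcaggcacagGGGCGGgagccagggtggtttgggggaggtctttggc
Serpina1a, chr12:103863620-103863869, minus strand: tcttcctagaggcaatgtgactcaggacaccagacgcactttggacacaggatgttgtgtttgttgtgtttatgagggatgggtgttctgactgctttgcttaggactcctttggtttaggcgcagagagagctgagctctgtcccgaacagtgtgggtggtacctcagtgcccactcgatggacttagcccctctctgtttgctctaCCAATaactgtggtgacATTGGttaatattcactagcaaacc

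Serpina3n held the NF-kB motif at -170 to -161 on the minus strand and at -43 to -34 on the plus strand, counted from the start site. Serpinh1 held it at -110 to -101 on the minus strand, with GGGCGG at -37 to -32. Serpina1a held CCAAT at -42 to -38 and, on the minus strand, at -25 to -21. No matches overlapped, and the other motifs were not in these windows. Of 32851 windows of this length in the table, 17.6% held the NF-kB motif, 32.7% GGGCGG, 33.9% CCAAT, 7.02% TTCNNNGAA, 2.98% the interferon motif, 6.69% GAANNTTC and 12.4% TATAAA. Of 49 serpin windows, 8 held the NF-kB motif, 6 GGGCGG, 17 CCAAT, 6 TTCNNNGAA, 2 the interferon motif, 2 GAANNTTC and 11 TATAAA. Aligned end to end, the Serpina1a window was identical to that of Serpina1c at 91.0%, Serpina1d at 89.4%, Serpina1b at 87.5% and Serpina1e at 60.3% of aligned columns. Serpina3n was identical to its tested neighbours Serpina3i and Serpina3j at 60.1% and 45.7%.

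Clade B, the intracellular inhibitors, held the rows of highest signal and no call. Of its 26 genes, 17 lay under background on every array. Serpinb1a, a tight-binding inhibitor of neutrophil elastase, cathepsin G and proteinase 3, read 16.54 and 16.76 in untreated WT, 16.77 and 16.61 in WT given DSS, 16.56 and 16.50 in untreated knockout, and 16.17 and 16.66 in knockout given DSS. The groups overlapped. Its DSS difference was 0.04 in WT (95% confidence interval from -0.49 to 0.58) and -0.11 in the knockout (from -0.65 to 0.42). Serpinb6a, which inhibits cathepsin G and trypsin-like proteases in the cytosol, read 15.36 and 15.08, 14.99 and 14.76, 15.01 and 15.14, and 15.01 and 15.01 in the same order of groups. Its DSS difference was -0.35 in WT (from -0.85 to 0.15) and -0.07 in the knockout (from -0.56 to 0.43). Serpinb5, or maspin, which does not act as a protease inhibitor, read 13.28 and 13.15, 12.96 and 12.68, 12.82 and 12.65, and 12.77 and 12.86. Untreated WT lay above the other groups on both arrays, and the difference of the untreated knockout from it was -0.48 (from -0.97 to 0.02, adjusted p = 0.81).

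Serpinb9, the inhibitor of granzyme B, was above background on all arrays at 7.24 to 7.99 and passed in no comparison (averaged DSS difference 0.15 ± 0.17, adjusted p = 0.72). Serpinb1b ran from 8.68 to 9.66. Serpinb1c read 7.56 and 8.14, 8.47 and 8.54, 8.15 and 8.55, and 6.79 and 8.47 in the same order of groups. Its low value on knockout DSS replicate 1 set that array apart, and without replicate 2 of that group it passed as lower with DSS in the knockout (-1.56, adjusted p = 0.0331) and as lower in the knockout with DSS (-1.71, adjusted p = 0.0303). Without replicate 1 these differences were 0.12 (adjusted p = 0.999) and -0.03 (adjusted p = 0.995). With all arrays the DSS difference in the knockout was -0.72 ± 0.44 (adjusted p = 0.699). Serpinb6b read 5.89 and 5.88 in untreated WT, under background, and 6.53 and 6.81, 6.70 and 6.31, and 6.81 and 6.92 in the other groups, all above it. Its DSS difference in WT was 0.78 ± 0.24 (adjusted p = 0.106), which is at least 1.45-fold. The other 5 tested clade B genes (Serpinb12, Serpinb3a, Serpinb3c, Serpinb6e and Serpinb9f) had no call either. Over the 12 tested clade B genes the median DSS difference was 0.04 in WT and -0.09 in knockout mice, and the median genotype difference was -0.06 untreated and -0.05 after DSS.

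Of clade F, Serpinf1, the anti-angiogenic factor PEDF, was above background on all arrays, at 6.67 and 6.73 in untreated WT, 6.22 and 7.12 in WT given DSS, 6.69 and 6.85 in untreated knockout, and 6.49 and 6.45 in knockout given DSS. Its DSS difference was -0.03 ± 0.29 in WT (adjusted p = 0.98). Serpinf2, the plasmin inhibitor, was under background throughout at 5.16 to 5.80. The single members of clades C, D and E were under background on all 8 arrays. Serpinc1 read 3.26 and 3.37, 3.88 and 3.47, 3.66 and 3.50, and 3.45 and 3.50 in the same order of groups. Serpind1 read 3.89 and 3.93, 3.49 and 3.70, 3.85 and 3.92, and 3.93 and 4.03. Serpine3 read 5.08 and 5.45, 4.66 and 5.29, 5.15 and 5.22, and 5.12 and 4.94. Serpina11 ran from 6.13 to 6.69 and passed nowhere. Over the 20 tested serpins without a call, DSS differences ran from -0.69 (Serpinb3a) to 0.78 (Serpinb6b) in WT and from -0.72 (Serpinb1c) to 0.79 (Serpini1) in the knockout. Genotype differences ran from -0.48 (Serpinb5) to 0.65 (Serpini2) without DSS and from -0.87 (Serpinb1c) to 0.61 (Serpinb3a) with DSS. In these 4 comparisons the widest 95% confidence limit of any of the 20 was 1.84 on the log2 scale, that of Serpinb1c with DSS between genotypes.

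**Figure D4:**
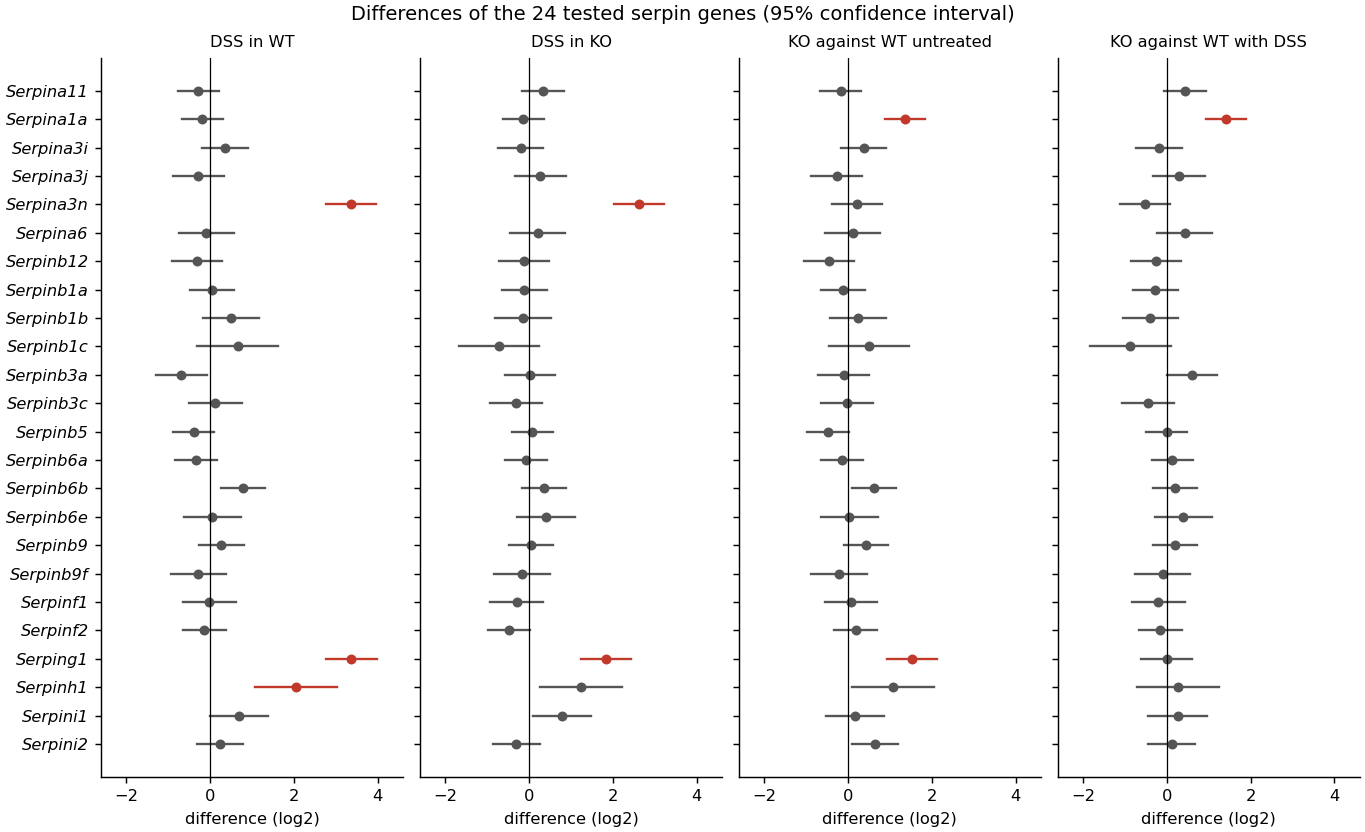
Log2 difference with its 95% confidence interval for the 24 tested serpin genes in 4 comparisons, with calls at an adjusted p under 0.05 in red. Serpina3n and Serping1 are called for DSS in both genotypes, Serpinh1 in WT alone, Serpina1a for genotype in both treatments and Serping1 for genotype without DSS.

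The test of whether DSS acted differently in the genotypes called none of the 24 serpins in limma, against 0.0769% of all tested genes (0.0461% higher and 0.0308% lower). At an unadjusted p under 0.05 there were 2, Serping1 (-1.53) and Serpinb1c (-1.37 ± 0.62, adjusted p = 0.906). The call of Serpinh1 in WT and not in the knockout, and of Serping1 between genotypes without and not with DSS, are therefore not shown to differ.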

How the data were processed

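The deposited table holds log2 signals of 8 Affymetrix arrays, made by the authors with Affymetrix Expression Console per the submitters' processing notes; no source used here gives its version, normalization, background correction or genome build. Values were used as deposited. The platform annotation gave exactly 1 symbol to 19572 of 28846 rows, giving 19505 genes (the row of highest mean kept), and the 33.3% of lowest mean (below 5.15) were left out of tests. All 55 serpin symbols were found in RefSeq GRCm38.p6, used for names, neighbours and sequences.

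The 8 arrays were fitted together, with 1 mean per group, in limma 3.58.1 (R 4.3.3), with 4 residual and 7.27 prior degrees of freedom, 7 two-sided comparisons and a pipeline tested on simulated data. For fold bounds ("at least"), the floor of the dim group was, per array, the higher of background and the gene's own signal. These bounds take the group means as measured and leave out the spread between arrays. Members, lists and tests were chosen with earlier results of these data known. By rule, serpins with a call and the highest row of a clade are given on every array, and up to 4 called genes of smallest p per list. F3 is named beyond that rule. Alternatives covered the filter, row choice, scaling, moderation, weights, arrays and replicate numbers.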

Additional observations from a re-analysis of the deposited data

How the results depend on the processing

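In WT, 3 serpins rose with DSS, and 2 or 3 with 1 array left out. The 2 calls in the knockout became 1 in a fit on its 4 arrays alone and 1 to 4 with 1 array left out. The 2 genotype calls without DSS became 1 after quantile normalization, and 0 to 2 with 1 array left out. The 1 call with DSS became 0 with array weights, 0 in the fit on those 4 arrays alone and 0 without the first DSS array of each genotype, the last chosen after seeing the data, against 1 to 3 serpins at an unadjusted p under 0.05 in limma, and 0 to 2 with 1 array left out. Averaged over treatments, the 1 genotype call became 2 with no filter and 1 to 3 with 1 array left out. The 3 averaged DSS calls were 3 or 4 with 1 array left out. Serpina3n passed for DSS in each genotype under all 17 alternatives, and Serping1 did in WT. No serpin call changed direction. Replicate numbers are shared by the groups, but deviations of same-numbered arrays correlated at -0.25 to 0.28, so they were not taken as pairs. With the replicate block the 2 untreated genotype calls became 1, since that of Serping1 was lost (1.53, adjusted p = 0.0675). The other counts did not change. With 2 arrays a group, and 38 of 55 serpins under background, small differences of most members could not be measured.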
